A study of Mus musculus with 5 samples.

Results

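The genes described here make cholesterol or govern its supply in the liver. They are 29 members of the mevalonate, sterol and SREBP2 pathway, taken from a list by the RefSeq accession of each array probe, out of 19757 named genes on the array. Expression was measured in whole liver of Fra-1hep mice and control mice, both C57BL/6J per the labels. Fra-1hep mice overexpress Fra-1, a subunit of the AP-1 transcription factor encoded by Fosl1, in hepatocytes only. The promoter that drives it is not given in the labels. Controls were C57BL/6J wild type. The livers came from animals aged 26 to 28 weeks, fed from 4 weeks of age on a high-fat diet in which fat supplied 45% of the energy.

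There were 4 arrays in 2 colours that each carried Cy5-labelled RNA of 1 Fra-1hep mouse beside the same Cy3-labelled pool of 5 control mice. A further array had the dyes swapped, with a Fra-1hep pool in Cy3 and the control pool in Cy5. The labels do not name the mice of that Fra-1hep pool, so the swapped array may add no animals. All values below are log2 ratios of Fra-1hep over control, with the sign of the swapped array turned to match. The control pool is 1 control sample, and the spread between control mice was not measured. The array of mouse 1 was alone on its slide and the other 4 arrays shared another, so mouse 1 and its slide cannot be told apart.

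Cells build cholesterol from acetyl-CoA through mevalonate, isoprenoid diphosphates, squalene and lanosterol. The transcription factor SREBP2 switches on nearly all of these steps. Its precursor sits in the endoplasmic reticulum bound to SCAP, and INSIG proteins hold that complex there while sterols are plentiful. When sterols run low, SCAP carries SREBP2 to the Golgi, where the site-1 and site-2 proteases release its active part. The liver is a main site of cholesterol synthesis and turns the surplus into esters, lipoproteins and bile acids.

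Depth and identity of the libraries set the frame. On each array 47.2% to 61.5% of spots were well above background in a given channel, and 28 of the 29 members were so in both channels on all 5 arrays. All 8 hepatocyte markers, albumin among them, were above background in both channels on every array. Of these, 2 were higher, 1 was lower and 5 did not pass, with summed levels of 698370 to 942410 in Fra-1hep against 540400 to 813170 in the control channel. There were 4 of the 8 that differed between the mice and the swapped array, Ahsg for example with 1.29 over the mice and 0.13 on that array. The 1 probe for Fosl1 was above background in 0 of 5 Fra-1hep channels and 1 of 5 control channels, so it did not check the labels. Markers of other cell types differed by genotype to unequal degrees. Over all named genes, 12.0% were higher and 18.5% lower. Of 9 neutrophil markers, 8 were higher in Fra-1hep, 1 did not pass and 0 were lower (0 also at an unadjusted p under 0.05, limma), with summed levels of 19826 to 58269 against 5390 to 6074 in the control channel. Of 12 macrophage and monocyte markers, 6 were lower and 6 did not pass, with sums of 22738 to 40926 against 35670 to 39602. Of 9 stellate cell and fibroblast markers, 7 were lower and 2 did not pass, with sums of 16407 to 21900 against 35253 to 45403. Endothelial markers gave 3 lower of 8 (13480 to 18561 against 19149 to 20920) and lymphocyte markers 2 lower of 7 (4907 to 8133 against 4772 to 8426). The macrophage and lymphocyte sums overlapped between Fra-1hep and control. The part of these cell types in the values of the sterol genes was not tested. In whole tissue, fewer cells of a type and less RNA per cell cannot be told apart.

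Most of the sterol genes that changed were higher in Fra-1hep liver. Of the 29 members, 13 were higher, 3 were lower and 13 did not pass an adjusted p of 0.05 (limma, Benjamini-Hochberg over all features). Among the 13525 named genes tested, 12.0% were higher and 18.5% were lower. Squalene epoxidase (Sqle) had the largest rise of the pathway and Insig2, a retention protein of the SREBP complex, the largest fall. The median genotype coefficient was 0.23 over the members and -0.02 over all named genes, and 20 of 29 members were above 0. The coefficient is the mean of 2 numbers, the average of the 4 mice and the swapped array. Its standard error combines the gene's own spread between the 4 mice with a variance that limma estimates over all features. The first had 3 degrees of freedom and the second 4.02, so the standard error is not the gene's own spread alone. Without mouse 1, that is within the shared slide, 16 members were higher and 4 lower, beside 11.8% and 17.7% of all named genes.

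**Figure D1:**
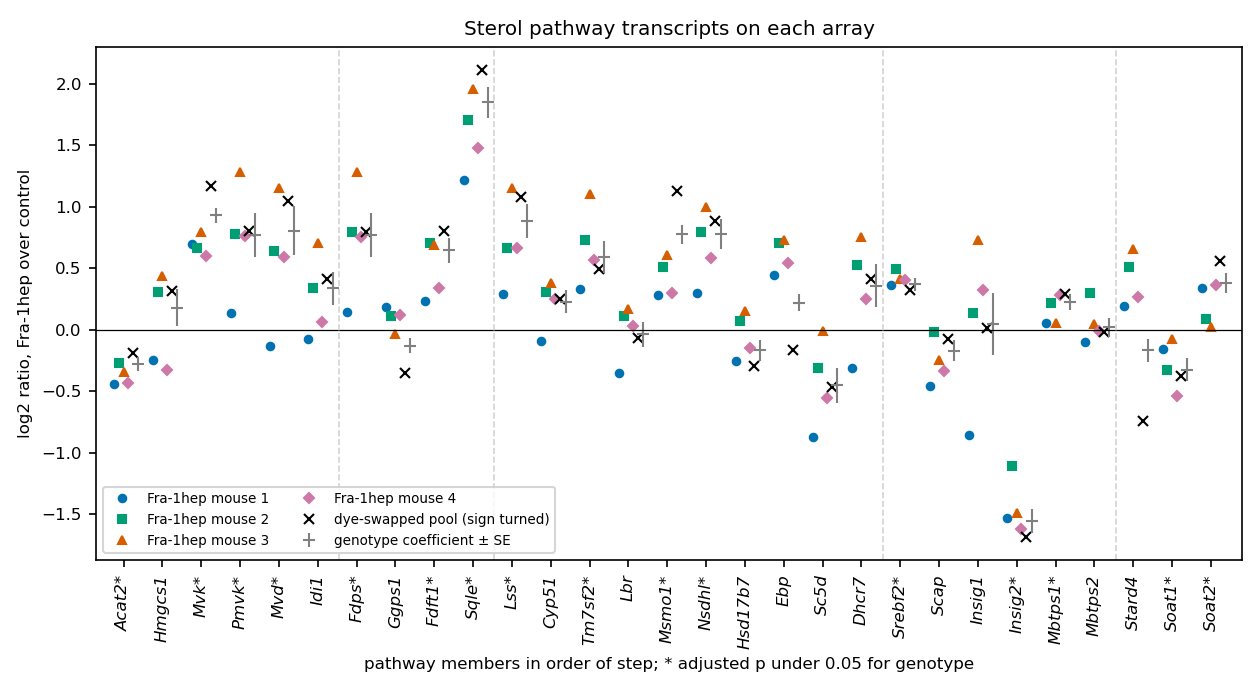
Log2 ratio of Fra-1hep over control (vertical axis) for the 29 members in order of pathway step (horizontal axis), with 1 symbol for each of the 4 mice and the dye-swapped pool, and the genotype coefficient ± SE beside them. Dashed lines part the role groups and stars mark an adjusted p under 0.05; Sqle stands highest on every array and Insig2 lowest.

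Promoter sequence was read for the members because many of them moved together. RefSeq windows on build GRCm38.p6, from 250 bases before to 50 bases after a transcription start, were held for 24 members and comprised 30 windows. Fdps, Fdft1, Sqle, Stard4 and Soat2 had no window and were not searched. All of these but Stard4 were higher in Fra-1hep. Both strands were searched and motifs could overlap. The SREBP motif TCACNCCAC was in the window of 1 member, Hmgcs1, and in 1.24% of 32851 windows of all genes. CCAAT, the NF-Y box, was in 20 of 30 member windows, in 20 of 24 members and in 37.4% of all windows. The Sp1 motif GGGCGG was in 24 of 30 member windows and 35.7% of all windows. The AP-1 motif TGANTCA was in 4 of 30 member windows (Msmo1, Lbr, Dhcr7 and Mbtps2) and 7.81% of all windows. Of the 9 members with a window that were higher in Fra-1hep, 8 held CCAAT, 8 held the Sp1 motif, 1 held the AP-1 motif and 0 held the SREBP motif. A match is a description of letters and not of binding. Sites outside the windows, or with other letters, were not searched.

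The windows of 4 members are shown: Mvk for its repeated CCAAT boxes, Msmo1 for the AP-1 motif in a gene that rose, Hmgcs1 for the SREBP motif in a gene that did not pass, and Insig2 for the gene that fell furthest. Each is the 250 bases before the start on GRCm38.p6, written 5′ to 3′ on the gene's strand, with the SREBP, CCAAT (or its complement ATTGG) and AP-1 motifs in capitals. For Insig2, which has several starts, the window with the most CCAAT boxes is given, and it is the most upstream. The other Insig2 windows held 0 CCAAT boxes.
Mvk, chr5:114444019-114444268, plus strand: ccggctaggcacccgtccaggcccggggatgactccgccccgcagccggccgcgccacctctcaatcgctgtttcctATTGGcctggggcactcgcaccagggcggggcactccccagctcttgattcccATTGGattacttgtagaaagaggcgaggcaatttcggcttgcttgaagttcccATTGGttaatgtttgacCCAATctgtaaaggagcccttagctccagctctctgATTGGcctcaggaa
Msmo1, chr8:64733579-64733828, minus strand: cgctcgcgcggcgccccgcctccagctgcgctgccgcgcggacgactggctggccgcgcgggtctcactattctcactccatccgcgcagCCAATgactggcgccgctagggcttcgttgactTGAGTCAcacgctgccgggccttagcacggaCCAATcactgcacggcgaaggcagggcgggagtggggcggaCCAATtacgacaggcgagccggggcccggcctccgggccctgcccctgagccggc
Hmgcs1, chr13:119690101-119690350, plus strand: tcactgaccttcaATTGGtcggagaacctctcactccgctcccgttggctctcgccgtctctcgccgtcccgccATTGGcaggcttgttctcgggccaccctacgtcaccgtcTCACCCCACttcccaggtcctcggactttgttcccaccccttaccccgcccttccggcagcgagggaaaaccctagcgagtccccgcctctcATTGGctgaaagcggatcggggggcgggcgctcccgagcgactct
Insig2, chr1:121332590-121332839, minus strand: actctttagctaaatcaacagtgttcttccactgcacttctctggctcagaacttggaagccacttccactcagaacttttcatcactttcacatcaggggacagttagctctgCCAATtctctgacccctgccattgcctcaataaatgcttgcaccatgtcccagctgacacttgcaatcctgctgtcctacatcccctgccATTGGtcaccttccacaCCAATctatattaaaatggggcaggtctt
Mvk held 5 CCAAT boxes in these bases, and Msmo1, Hmgcs1 and Insig2 held 3 each. In Msmo1 the AP-1 motif TGAGTCA began 127 bases before the start and lay between 2 CCAAT boxes. The SREBP motif of Hmgcs1, TCACCCCAC, began 137 bases before the start.

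Along the mevalonate arm, from acetyl-CoA to the isoprenoid unit, 3 of 6 genes were higher (Mvk, Pmvk and Mvd), 1 was lower (Acat2) and 2 did not pass. The median coefficient was 0.55. Mvk, mevalonate kinase, read 0.70, 0.66, 0.80 and 0.60 in mice 1 to 4 and 1.17 on the swapped array. The 4 mice lay close together and the swapped array above all of them. Its coefficient of 0.93 ± 0.06 (SE) had an adjusted p of 0.000131, a 1.91-fold rise that ranked 143 among the named genes.

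Mevalonate diphosphate decarboxylase, Mvd, makes the isoprenoid unit and varied far more between animals. It read -0.13, 0.64, 1.15 and 0.60 in mice 1 to 4 and 1.05 on the swapped array. Mouse 1 was the single array below 0. The coefficient was 0.81 ± 0.20 (adjusted p = 0.0257), and the call was lost without mouse 4 (adjusted p = 0.0579). Phosphomevalonate kinase, Pmvk, showed the same low mouse 1 and high mouse 3, with 0.14, 0.78, 1.28 and 0.76 in the mice and 0.81 on the swapped array. Its coefficient was 0.77 ± 0.18 (adjusted p = 0.020).

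Acat2, the cytosolic thiolase that joins acetyl-CoA units at the head of the arm, went the other way. It read -0.44, -0.27, -0.35 and -0.43 in the mice and -0.19 on the swapped array, all below 0. The coefficient was -0.28 ± 0.06 (adjusted p = 0.0142). Hmgcs1, the cytosolic HMG-CoA synthase and a textbook SREBP2 target, split the animals: mice 2 and 3 read 0.31 and 0.44, mice 1 and 4 read -0.24 and -0.33, and the swapped array 0.31. Its coefficient of 0.18 ± 0.15 did not pass (adjusted p = 0.418), although its promoter window above was the one with the SREBP motif. Idi1, isopentenyl diphosphate isomerase, read -0.08, 0.34, 0.71 and 0.06 in the mice and 0.41 on the swapped array, with a coefficient of 0.34 ± 0.14 (adjusted p = 0.113).

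The steps from isoprenoid diphosphates to squalene epoxide gave 3 genes higher of 4 (Fdps, Fdft1 and Sqle), 1 not passing and 0 lower (0 also at an unadjusted p under 0.05, limma), with a median of 0.71. Sqle encodes squalene epoxidase, an oxygen-dependent and rate-controlling step on the way to cholesterol. It read 1.22, 1.71, 1.96 and 1.48 in mice 1 to 4 and 2.11 on the swapped array. Every array was well above 0, with mouse 1 lowest. The coefficient was 1.85 ± 0.13 (adjusted p = 0.000176), a 3.61-fold rise that ranked 35 among the 13525 named genes.

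Fdft1, squalene synthase, which commits farnesyl diphosphate to sterols, read 0.23, 0.70, 0.69 and 0.34 in the mice and 0.80 on the swapped array. All arrays were above 0 and the coefficient was 0.65 ± 0.10 (adjusted p = 0.00519). Fdps, which makes farnesyl diphosphate, read 0.14, 0.79, 1.28 and 0.75 in the mice and 0.80 on the swapped array, again lowest in mouse 1 and highest in mouse 3. Its coefficient was 0.77 ± 0.18 (adjusted p = 0.0205). Ggps1 draws on the same substrate for geranylgeranyl diphosphate, which feeds protein prenylation. It read 0.18, 0.11, -0.03 and 0.12 in the mice and -0.36 on the swapped array, and its coefficient of -0.13 ± 0.06 did not pass (adjusted p = 0.155).

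From squalene epoxide to cholesterol, 4 of 10 genes were higher (Lss, Tm7sf2, Msmo1 and Nsdhl), 6 did not pass and 0 were lower (1 at an unadjusted p under 0.05, limma). The median of the group was 0.29. Lanosterol synthase, Lss, closes the sterol rings. It read 0.29, 0.67, 1.15 and 0.66 in the mice and 1.08 on the swapped array, with a coefficient of 0.89 ± 0.14 (adjusted p = 0.00500). The enzymes that strip methyl groups from the ring gave both rises and values near 0. Nsdhl, a sterol dehydrogenase of that step, read 0.30, 0.80, 1.00 and 0.58 in the mice and 0.89 on the swapped array (0.78 ± 0.12, adjusted p = 0.00491).

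Msmo1, the methylsterol oxidase that begins that demethylation, read 0.28, 0.51, 0.61 and 0.30 in the mice and 1.13 on the swapped array. All 5 arrays were above 0, but the swapped array exceeded the highest mouse. The coefficient was 0.78 ± 0.08 (adjusted p = 0.000857), and it was 0.42 from the 4 mice alone. Hsd17b7, the ketosteroid reductase of the same step, stayed near 0, with values from -0.29 to 0.15 over the 5 arrays (-0.17 ± 0.09, adjusted p = 0.188).

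Tm7sf2, a sterol C14 reductase, read 0.33, 0.73, 1.11 and 0.56 in the mice and 0.50 on the swapped array (0.59 ± 0.13, adjusted p = 0.0173). Lbr, a nuclear envelope protein with the same reductase activity, did not follow it, with values from -0.35 to 0.17 and a coefficient of -0.04 ± 0.10 (adjusted p = 0.809). Cyp51, the lanosterol demethylase that acts just before them, read -0.09, 0.31, 0.38 and 0.25 in the mice and 0.25 on the swapped array. Only mouse 1 was below 0. Its coefficient of 0.23 ± 0.09 did not pass (adjusted p = 0.108) but did without mouse 1 (adjusted p = 0.0186).

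The last sterol steps gave mixed values. Dhcr7, the 7-dehydrocholesterol reductase, read -0.31, 0.52, 0.75 and 0.25 in the mice and 0.42 on the swapped array. Its coefficient was 0.36 ± 0.18 (adjusted p = 0.175), and it passed without mouse 1 (adjusted p = 0.0217). Sc5d, which makes the substrate of Dhcr7, read -0.87, -0.32, -0.01 and -0.55 in the mice and -0.46 on the swapped array. All were below 0, mouse 3 barely. The coefficient of -0.45 ± 0.14 had an adjusted p of 0.0565. It passed without mouse 1 (adjusted p = 0.0448), mouse 3 (0.0244) or the swapped array (0.0348). Ebp, the sterol isomerase before it, read 0.45, 0.71, 0.73 and 0.54 in the mice and -0.17 on the swapped array, and is taken up with the dye comparison.

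Among the 6 genes that control SREBP release, 2 were higher (Srebf2 and Mbtps1), 1 was lower (Insig2) and 3 did not pass, with a median of 0.03. Insig2 read -1.53, -1.11, -1.49 and -1.62 in the mice and -1.68 on the swapped array. Every array was below -1. The coefficient of -1.56 ± 0.10 had an adjusted p of 0.000124, a 2.95-fold fall that ranked 13459 of 13525 named genes by the signed coefficient. Insig1, the other retention protein and itself a textbook SREBP target, showed the widest spread of all members. It read -0.86, 0.13, 0.73 and 0.32 in the mice (SD 0.675) and 0.02 on the swapped array, and its coefficient was 0.05 ± 0.25 (adjusted p = 0.910).

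Srebf2, which encodes SREBP2, read 0.37, 0.49, 0.41 and 0.40 in the mice and 0.32 on the swapped array, the tightest spread of the 13 members that were higher (SD 0.054). Its coefficient was 0.37 ± 0.05 (adjusted p = 0.00409) on the brighter of its probes. The dimmer probe gave -0.06 ± 0.09 (adjusted p = 0.683). Scap, the escort protein, was below 0 on all 5 arrays, from -0.46 to -0.02, with a coefficient of -0.17 ± 0.09 (adjusted p = 0.180). The site-1 protease gene Mbtps1 rose by little, with 0.06, 0.22, 0.06 and 0.28 in the mice and 0.29 on the swapped array (0.22 ± 0.07, adjusted p = 0.0455). That call was lost without mouse 2 (adjusted p = 0.0735), mouse 3 (0.0641), mouse 4 (0.0823) or the swapped array (0.0821). Mbtps2, the site-2 protease gene, gave 0.02 ± 0.08 (adjusted p = 0.889), with mice from -0.10 to 0.30.

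The esterifying enzymes moved in opposite directions. Soat2, the acyltransferase of hepatocytes that makes cholesteryl esters for lipoproteins, read 0.34, 0.09, 0.03 and 0.36 in the mice and 0.56 on the swapped array. It was above 0 on all arrays, with a coefficient of 0.38 ± 0.08 (adjusted p = 0.0147). From the 4 mice alone it was 0.20 and did not pass (adjusted p = 0.0647). Soat1, the broadly expressed acyltransferase that is abundant in macrophages, read -0.15, -0.33, -0.08 and -0.54 in the mice and -0.37 on the swapped array (-0.32 ± 0.09, adjusted p = 0.0385). Its Fra-1hep channel was above background on 3 of 5 arrays. The call was lost without mouse 2 (adjusted p = 0.0593).

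Macrophage and monocyte markers were read beside Soat1. Of 12, 6 were lower, 6 did not pass and 0 were higher (0 also at an unadjusted p under 0.05, limma). Gpnmb gave -1.88 ± 0.12 (adjusted p = 0.00013) and was above background in 1 of 5 Fra-1hep channels, and Trem2 gave -0.86 ± 0.06 (adjusted p = 0.000172). Itgam, counted among the 6 lower, was above 0 in all 4 mice (mean 0.13) and called lower through the swapped array (-0.57). Adgre1 was lower too (-0.82 ± 0.14, adjusted p = 0.00695). The Kupffer cell markers Marco, Clec4f, Vsig4 and Timd4 gave -0.78, 0.07, 0.05 and 0.13 and did not pass. The part of these cells in the value of Soat1 was not tested. Stard4, which carries cholesterol between membranes and is a known SREBP2 target, read 0.20, 0.51, 0.66 and 0.27 in the mice and -0.74 on the swapped array. Its coefficient of -0.17 ± 0.09 did not pass (adjusted p = 0.229).

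The single-animal arrays and the swapped array were compared gene by gene through the dye term of the same limma fit. Of 29 members, 2 (Ebp and Stard4) differed between them at an adjusted p under 0.05, against 3.67% of all named genes. In both, the 4 mice were above 0 and the swapped array below. Ebp averaged 0.61 over the mice and had a dye term of 0.39 (adjusted p = 0.0325). Stard4 averaged 0.41 over the mice and had a dye term of 0.57 (adjusted p = 0.0213). Dye, array and the makeup of the Fra-1hep pool cannot be told apart in that term. From the 4 mice alone, Ebp was higher (adjusted p = 0.000701) and Stard4 was higher at 0.41 (adjusted p = 0.00952), where the full fit put Stard4 below 0 without a call. Scap passed as lower in that fit, at -0.27 (adjusted p = 0.0332).

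The other members kept more to one sign. The mean of the mice and the swapped array had opposite signs in 4 of 29 members (13.8%) and in 34.9% of all named genes. The same sign on all 5 arrays was seen in 17 members (58.6%) and in 39.9% of all named genes. Of the 13 members called higher, 12 were above 0 on every array, Mvd being the exception through mouse 1. The calls come from these same arrays, so neither that count nor the shares of agreeing signs above are evidence separate from the calls. The swapped array lay inside the range of the mice in 16 members, above all mice in 7 (24.1%) and below all mice in 6 (20.7%). Over all named genes those shares were 43.2% inside, 29.2% above and 27.6% below, against 55.2% inside for the members. Of the 7 above, 6 were called higher, in a fit whose coefficient includes the swapped array. Among them Msmo1 had a dye term of -0.35 (adjusted p = 0.0539) and Mvk one of -0.24 (adjusted p = 0.0750).

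**Figure D2:**
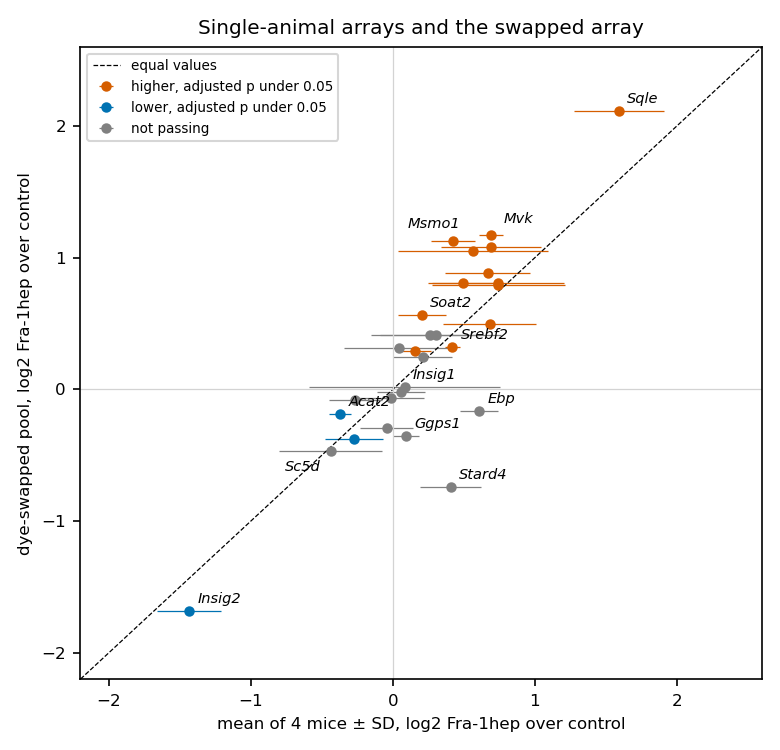
Mean of the 4 Fra-1hep mice ± SD (horizontal axis) against the dye-swapped pool (vertical axis), both as log2 ratios of Fra-1hep over control, with 1 point for each of the 29 members, coloured by call. The dashed line marks equal values; Ebp and Stard4 lie right of 0 and below 0, and Sqle and Insig2 stand at opposite ends of the line.

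The sterol genes varied between the 4 mice in a shared order. Mouse 1 had the lowest of the 4 values in 22 of 29 members (75.9%), against 30.5% of all named genes. Mouse 3 had the highest in 20 members (69.0%), against 20.3%. Among the 20 enzymes of synthesis, each of these was true of 17. The median over all members was 0.06 in mouse 1, 0.34 in mouse 2, 0.60 in mouse 3 and 0.28 in mouse 4. The median range over the mice was 0.474 for the members, 0.719 for the enzymes and 0.263 for all named genes. Mvk, Srebf2 on its brighter probe and Acat2 were among the exceptions with a narrow spread, with SDs of 0.084, 0.054 and 0.079. The dimmer Srebf2 probe was lowest in mouse 1 and highest in mouse 3.

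Genes of fatty acid synthesis, which SREBP1 governs, showed the same order of animals more widely. Of 16 SREBP1 and lipogenic genes, mouse 1 was lowest in 14 and mouse 3 highest in 15. Their medians were -0.58, 0.19, 0.69 and 0.11 in mice 1 to 4 and 0.14 on the swapped array. The median range over the mice was 1.27. Fatty acid synthase, Fasn, read -0.55, 0.38, 1.26 and 0.60 in the mice, and Scd1, the stearoyl-CoA desaturase, -0.79, 0.66, 1.52 and 0.44. Both had mouse 1 below 0 and mouse 3 highest. Mouse 1 was the animal whose array lay alone on its slide.

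**Figure D3:**
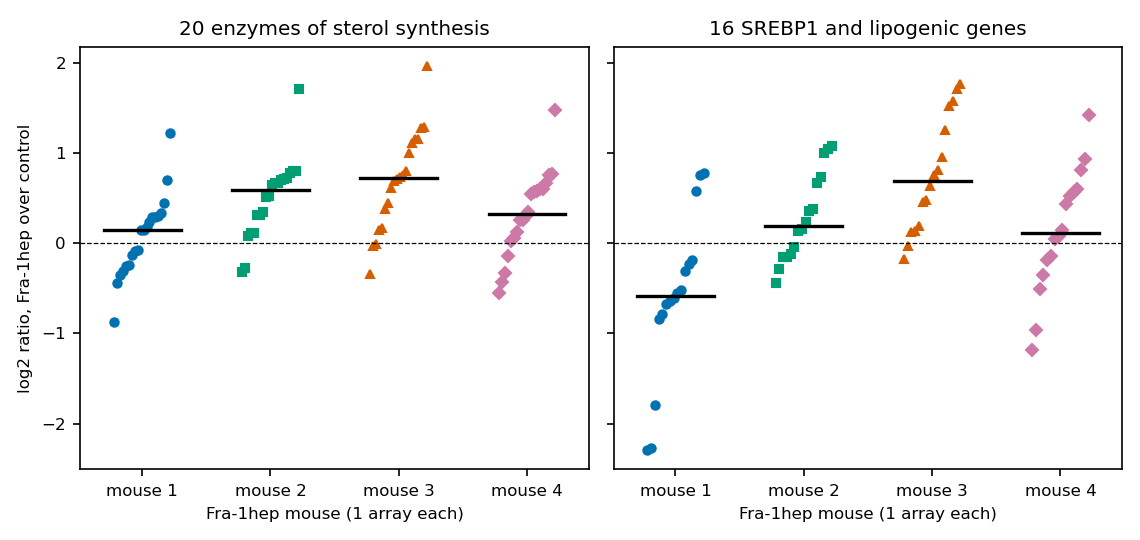
Log2 ratios of Fra-1hep over control (vertical axis) in each of the 4 mice (horizontal axis) for the 20 enzymes of sterol synthesis (left) and the 16 SREBP1 and lipogenic genes (right). Each point is 1 gene and bars mark medians; in both panels the median is lowest in mouse 1 and highest in mouse 3.

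A second probe passed the filter in 10 members. For Mvk, Pmvk, Tm7sf2, Nsdhl and Insig2 both probes were past the threshold in the same direction. The second Insig2 probe, on another RefSeq transcript, read -1.65, -1.14, -1.84 and -1.80 in the mice and -2.18 on the swapped array, with a coefficient of -1.89 ± 0.13 (adjusted p = 0.000117). The second Mvk probe gave 1.03 ± 0.07 (adjusted p = 0.000146) and that of Tm7sf2 0.70 ± 0.11 (adjusted p = 0.00427). Nsdhl was lower on its second probe, at 0.43 ± 0.09 (adjusted p = 0.0144).

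For Srebf2, Mbtps1, Stard4 and Hsd17b7 the choice of probe set the call or the sign. Srebf2 was described above, with -0.35, -0.07, 0.14 and -0.13 in the mice and -0.01 on the swapped array from its dimmer probe. Mbtps1 gave 0.10 ± 0.09 on its second probe. Hsd17b7 gave -0.17 ± 0.09 on its brightest probe and 0.01 ± 0.11 on the other, with a call on neither. Stard4 read -0.14, 0.48, 0.38 and 0.02 in the mice and 0.11 on the swapped array, so its second probe did not have the fall that the first showed on that array. Pmvk read 0.03, 0.59, 1.08 and 0.46 in the mice and 1.03 on the swapped array from its second probe (0.78 ± 0.16, adjusted p = 0.0140).

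**Figure D4:**
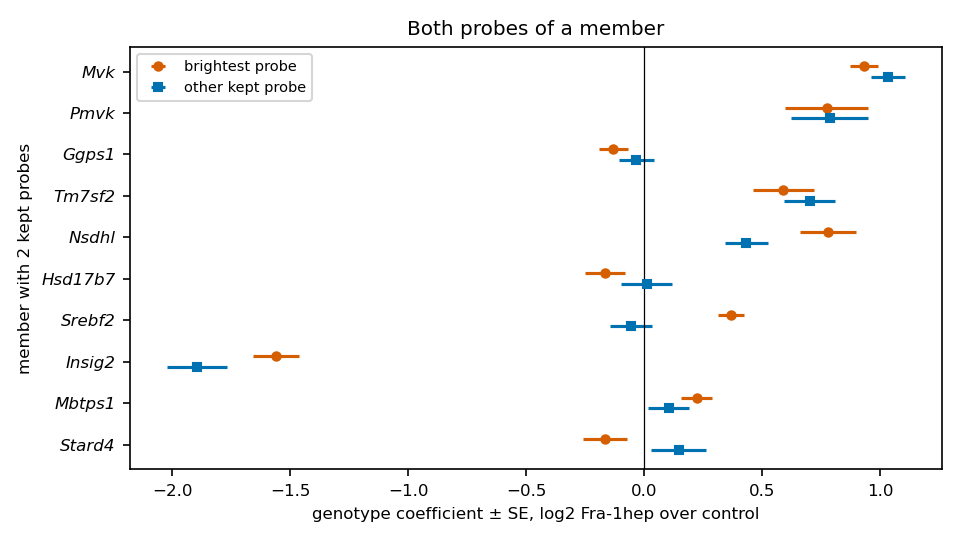
Genotype coefficient ± SE (horizontal axis, log2 Fra-1hep over control) on the brightest and on the other kept probe of the 10 members that had both (vertical axis). The probes of Insig2, Mvk, Pmvk, Tm7sf2 and Nsdhl lie on 1 side of 0, and those of Srebf2, Stard4 and Hsd17b7 on opposite sides.

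Gene lists next to the pathway were counted in the same way, beside 12.0% higher and 18.5% lower over all named genes. Of the 16 SREBP1 and lipogenic genes, 3 were higher (the regulators Mlxipl, Thrsp and Srebf1), 1 was lower and 12 did not pass, with a median of 0.07. Thrsp gave 0.89 ± 0.17 (adjusted p = 0.00991) and Mlxipl 0.56 ± 0.06 (adjusted p = 0.00124). Srebf1, which encodes SREBP1, gave 0.40 ± 0.11 (adjusted p = 0.0350), with a mean of 0.67 over the mice and 0.12 on the swapped array. Fasn (0.69 ± 0.28, adjusted p = 0.110) had a coefficient near those of called members but a wider spread. Of 12 genes that use isoprenoids for prenylation, ubiquinone or dolichol, 2 were higher, 10 did not pass and 0 were lower (3 at an unadjusted p under 0.05, limma). Rabggta, a Rab geranylgeranyl transferase subunit, gave 0.29 ± 0.05 (adjusted p = 0.00825), with a mean of 0.097 over the 4 mice and 0.49 on the swapped array. Its partner Rabggtb was below 0 in all 4 mice, from -0.11 to -0.03, and 0.45 on the swapped array, so that its call as higher (0.20 ± 0.05, adjusted p = 0.0330) rests on that array. Chm, a Rab escort protein, gave -0.25 ± 0.08 (adjusted p = 0.0508).

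Partners of sterol sensing and degradation in the endoplasmic reticulum gave 1 higher, 2 lower and 12 not passing of 15. The shares over all named genes were 12.0% higher and 18.5% lower. Among the lower genes, Erlin2, a membrane scaffold of that degradation, gave -0.39 ± 0.07 (adjusted p = 0.00641). It averaged -0.12 over the 4 mice, with mouse 2 just above 0, and read -0.66 on the swapped array. Pgrmc1, a haem protein that binds cytochromes P450, gave -0.26 ± 0.07 (adjusted p = 0.0295), with a mean of -0.15 over the mice and -0.37 on the swapped array.

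On the outflow side, 2 of 21 genes of sterol uptake, transport and efflux were higher, 5 lower and 14 did not pass. These counts lie near the shares over all named genes, 12.0% higher and 18.5% lower. The lower genes with the smallest p were Mylip, a ubiquitin ligase for lipoprotein receptors (-0.69 ± 0.09, adjusted p = 0.00244), and the sterol exporters Abcg1 (-0.46 ± 0.09, adjusted p = 0.00938) and Abca1 (-0.31 ± 0.07, adjusted p = 0.0176). Abca1 averaged -0.19 over the mice and read -0.43 on the swapped array. Abcg1 and Abca1 are also expressed by macrophages, of whose markers 6 were lower as given above, and that part was not tested. Of 9 genes that turn cholesterol into oxysterols and bile acids, 2 were higher, 3 lower and 4 did not pass. Cyp8b1, the sterol 12-alpha-hydroxylase, fell most (-1.13 ± 0.09, adjusted p = 0.000335), followed by Hsd3b7, an early bile acid enzyme (-0.93 ± 0.10, adjusted p = 0.00106). Ch25h, the cholesterol 25-hydroxylase, was not well above background in any Fra-1hep channel and was at least 1.29-fold lower there (mean log2 signal 6.26 against 6.67 in the control, adjusted p = 0.00696). That bound sets the control mean against the lowest signal well above background on each array.

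Among 7 genes of steps beside the pathway, 1 was higher, 3 were lower and 3 did not pass. Over all named genes the shares were 12.0% higher and 18.5% lower. Cyb5r3, the cytochrome b5 reductase that feeds electrons to sterol oxidases, rose (0.37 ± 0.08, adjusted p = 0.0148).

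**Figure D5:**
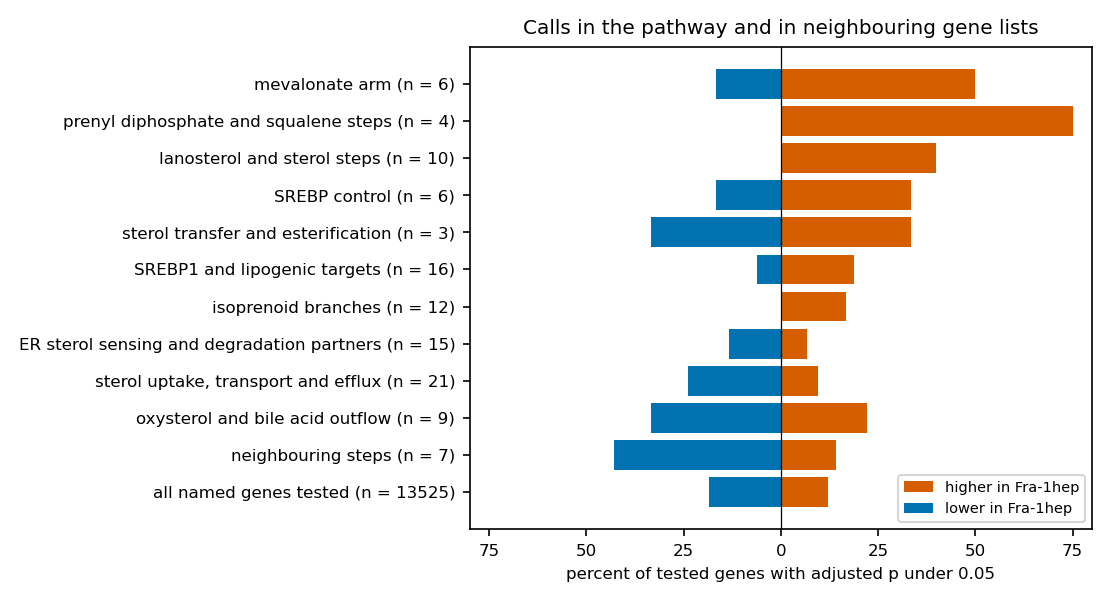
Percent of tested genes past an adjusted p of 0.05 (horizontal axis), higher in Fra-1hep to the right and lower to the left, for the 5 role groups, 6 neighbouring gene lists and all named genes (vertical axis, n in brackets). The mevalonate, squalene and sterol groups extend mostly to the right, against 12.0% higher and 18.5% lower over all named genes.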

How the data were processed

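Liver RNA (integrity above 7.8, 100 ng labelled, per the labels' protocols) was read on 5 arrays. The authors deposited spot intensities and log10 ratios from Agilent Feature Extraction (10.7 per the submitters' processing notes, 10.7.3.1 per the file headers). They also deposited a table of log2 ratios, with slopes against the scanner ratios of 1.00 (mice) and -1.00 (swapped array), so its sign is Fra-1hep over control. It was not centred (medians -0.04 to 0.13). The files used hold median signals, which were corrected with normexp (offset 50) and normalized by loess within arrays in limma 3.58.1 under R 4.3.3. The offset shrinks ratios of dim probes.

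Control spots and 177 non-uniform spots were left out. No spot was saturated. Of 55681 probes, 26065 were named through RefSeq (GRCm38.p6) and 28115 were kept, those flagged well above background by the scanner software in Cy5 or Cy3 on 3 or more arrays. The brightest kept probe stood for a gene, which left 21494 features. Of the members' 42 probes 39 were kept. limma fitted a genotype coefficient and a dye term per gene, with 3 residual and 4.02 prior degrees of freedom. The number of arrays limits the precision, with a median SE of 0.067. On simulated data the fit recovered 67.2%, 94.0% and 100% of changes of 0.5, 1 and 2 (log2) among 21494 genes, and 3.33% of calls were false. The simulated noise was independent between arrays, without an error of the control pool shared by all arrays. These shares therefore do not measure the errors of the real calls.

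Members and lists were chosen with earlier results of these data known. All members are named, of each other list up to 3 genes with the smallest p, and of each marker list the defining markers; Fasn and Scd1 were chosen after their values were seen. Some listed genes are counted but not reported here by name. In all, 16 alternative settings changed the dye term, arrays, background, normalization, filter, probe, weights or assumed control spread, and 1 was added after seeing the data.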

Additional observations from a re-analysis of the deposited data

How the results depend on the processing

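Of the 16 members called, 7 kept their call and direction under all 17 alternatives: Mvk, Fdft1, Sqle, Lss, Msmo1, Nsdhl and Insig2. Leaving out each mouse in turn gave 11 to 16 members higher (8.95% to 11.8% of all named genes) and 2 to 4 lower (14.4% to 18.4%). The median was then 0.21 to 0.28, and 0 to 2 members differed between the mice and the swapped array. The members higher numbered 8 with scaling between arrays (9.29% of all named genes). The spread between control mice was not measured, so a further setting assumed it equal to the variance behind the standard errors of the fit. With that assumed spread of the control pool added, 7 members were higher and 1 lower (6.03% and 9.91% of all named genes). Acat2 (adjusted p = 0.052), Pmvk (0.0685), Mvd (0.0837), Fdps (0.07), Tm7sf2 (0.061), Mbtps1 (0.13), Soat1 (0.114) and Soat2 (0.0535) then missed the threshold. Without the swapped array 5 members were lower (23.8% of all named genes) and Stard4 turned to 0.41 (adjusted p = 0.00952). On the dimmest kept probe, a setting chosen after seeing the data, Srebf2 turned to -0.057 (adjusted p = 0.683).

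Members that differed between the mice and the swapped array numbered 18 with median centring in place of loess, 1 with the mean of all probes and 1 on the dimmest probe. They numbered 0 with normexp offset 0 (5 at an unadjusted p under 0.05, limma), and 0 with the processed signals, the deposited table and scaling between arrays (4 each at that p). That count has no value without the swapped array or without the dye term. The share of all named genes that differed was not counted under the alternative settings. The count of 18 therefore cannot be read as particular to the sterol genes. On the processed signals and in the deposited table, 9 members were higher and 3 lower (10.9% and 13.5% of all named genes), with a median of 0.39; Srebf2 read 0.58 and Soat1 -0.95. The cause of these changes was not tested. No paired analysis was possible because the swapped array is a single pool. Signal over background limits Soat1 most.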

Other observations

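The brightest probes of Pmvk and Fdps gave nearly the same log2 ratios, within 0.016 of each other on all 5 arrays, the closest of 406 pairs of members. The next closest pair, Lss and Nsdhl, differed by up to 0.19. Whether the Pmvk probe also reads Fdps RNA was not tested. The second Pmvk probe was higher too (0.78 ± 0.16, adjusted p = 0.0140, limma), with values that differed from Fdps.

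Cyp7a1, the rate-limiting enzyme of bile acid synthesis, read 1.72, 0.24, 1.04 and 0.61 in mice 1 to 4 and 1.06 on the swapped array, above 0 throughout (0.98 ± 0.24, adjusted p = 0.0237, limma), while Cyp8b1 of the same list fell. It was chosen for mention after its values were seen. Mouse 1, lowest for most sterol synthesis genes, was highest here.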
